A study of Mus musculus with 16 samples.

Results

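The 6 purine breakdown genes, Enpp3, Nt5e, Ada, Pnp, Gda and Xdh, were followed from the crypt to the top of the villus in single cells of the mouse small intestine. They are 6 of the 24421 genes listed in both cell matrices, and they had been picked by name because earlier results of these data showed them high in cells of the villus top. The study compared wild-type (WT) mice with ROBO-Crainbow (ROBO) mice, in which Villin-Cre switches on a multicolour transgene in the intestinal epithelium, so that single cells express human RSPO3 or 1 of 2 PTPRK:RSPO3 fusions, each paired with a fluorescent protein. Both groups were untreated outbred mice at postnatal day 16, and the tissue was enriched for crypts before cells were captured in droplets. Each genotype has 8 deposited samples from 2 capture cartridges, but the cells of a genotype come in 1 matrix that does not say from which sample a cell came. Each genotype was therefore 1 pooled sample, no test between genotypes was possible, and every interval given is a 95% interval that covers counting error only. The matrices held 1348 WT cells with 2682127 UMIs (unique molecular identifiers, 1 for each captured RNA molecule) and 1249 ROBO cells with 2428435 UMIs, and the median cell had 1492 and 1610 UMIs.

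Purine nucleotides that reach the gut lumen or are released by dying cells are taken apart in steps. Enzymes on the cell surface strip phosphates from nucleotides and leave nucleosides, which transporters carry into the enterocyte. Inside the cell, adenosine is deaminated to inosine, the sugar is split off, and the free base is deaminated or oxidised through xanthine to urate. Enpp3 is a surface pyrophosphatase that cuts nucleoside triphosphates to monophosphates. Nt5e, also known as CD73, is the surface enzyme that turns AMP into adenosine. Ada deaminates adenosine, Pnp releases the base from inosine and guanosine, Gda deaminates guanine to xanthine, and Xdh oxidises hypoxanthine and xanthine. Enterocytes are born in the crypt and move up the villus until they are shed at its tip, so bottom, middle and top enterocytes are successive ages of the same lineage.

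Promoters of members are shown because the genes were high in different groups of enterocytes. RefSeq promoter sequences of build GRCm38.p6 were matched for 5 of the 6 members; Xdh was not matched. The window searched was the 250 bases before the RefSeq start of each gene, searched on both strands, in 27025 genes. The sequences of 3 are printed, Ada and Enpp3, which were high in the top class, and Gda, which was also high in middle enterocytes. All 3 windows lie on the minus strand, and bases that GENCODE M21 assigns to an untranslated exon were removed from the end next to the start, 30 in Enpp3 and 11 in Gda. Capitals mark GGGCGG and CCAAT on either strand. Ada lies at chr2:163750240-163750489, Enpp3 at chr10:24836226-24836445 and Gda at chr19:21472673-21472911.
Ada: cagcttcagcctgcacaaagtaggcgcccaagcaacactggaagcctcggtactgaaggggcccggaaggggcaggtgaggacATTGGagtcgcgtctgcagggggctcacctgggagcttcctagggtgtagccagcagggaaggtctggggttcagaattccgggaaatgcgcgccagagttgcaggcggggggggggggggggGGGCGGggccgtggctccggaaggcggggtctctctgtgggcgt
Enpp3: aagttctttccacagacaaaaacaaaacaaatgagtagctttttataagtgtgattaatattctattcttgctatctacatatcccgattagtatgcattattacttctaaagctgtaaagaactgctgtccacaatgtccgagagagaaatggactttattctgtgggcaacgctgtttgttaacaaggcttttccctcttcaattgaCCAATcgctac
Gda: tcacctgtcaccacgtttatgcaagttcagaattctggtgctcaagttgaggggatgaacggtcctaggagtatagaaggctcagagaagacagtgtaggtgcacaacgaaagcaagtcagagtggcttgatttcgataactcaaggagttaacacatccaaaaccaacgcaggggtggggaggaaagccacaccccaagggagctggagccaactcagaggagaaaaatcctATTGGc
The Ada window, with 67.2% G and C, held GGGCGG, as did those of Nt5e and Pnp, and 32.9% of all promoters held it. All 250 bases of the Nt5e window lie in an untranslated exon of Nt5e in GENCODE M21. Under that annotation its matches are not upstream of the gene. The Enpp3, Gda and Pnp windows also lie within the GENCODE span of their own gene over all 250 bases. Of the windows matched, only that of Ada lies outside its gene. CCAAT was found in Ada, Enpp3, Gda and Pnp and in 34.5% of all promoters. The Enpp3 window, with 36.8% G and C, held TATAAA, found in 13.0% of all promoters, and the Gda window held TTTATG, found in 11.1%. CAAAG was found in Ada and in 48.8% of all promoters, and CCACCC in Gda and in 27.7%. The GATA motif AGATAA, the HNF1 motif GTTAAT, the AP-1 motif TGANTCA and the longer HNF4 motif CAAAGTCCA were found in none of the 5 windows. No motif searched was held by all 3 of Ada, Enpp3 and Nt5e. A match is a description of the letters and not of a bound site.

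Cells were grouped without using the 6 genes or any other gene on a list of the purine pathway. Clusters were named from marker genes, and no position on the villus was measured. Crypt cells (1400 cells, 740 WT and 660 ROBO) joined the clusters with stem cell and transiently amplifying markers. Bottom enterocyte-like cells numbered 169. Middle enterocyte-like cells fell into a cluster led by Cubn (288 cells) and a cluster led by Sis (134 cells). They are called middle Cubn and middle Sis here, and their order along the villus was not determined. Top enterocyte-like cells numbered 224 (101 WT and 123 ROBO, with medians of 1231 and 1246 UMIs), and 8 of their 10 listed markers were raised, led by Gpx3 and Mfi2. A cluster of 173 cells led by Cxcl10 and Atf3 stayed unnamed. Secretory (126), enteroendocrine (29), immune (46) and fibroblast (8) cells made up the rest. No cells had identical counts. In a bulk-like sum over a class, fewer cells with a transcript and less of it per cell cannot be told apart, so shares of cells are given beside the levels.

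The 6 genes did not share 1 pattern. Enpp3, Nt5e and Ada were concentrated in the top class, Gda and Xdh were spread over the middle and top classes, and Pnp was found from crypt to top, with its highest epithelial level in the middle. The name villus top, under which the 6 were chosen, therefore held for 3 of them in these cells. Levels are UMIs of the gene per 10000 UMIs of the class, and compare classes within a gene. The genes were chosen for their rise toward the top, so levels and ratios between classes are described and not tested. At least 2-fold higher in top than in crypt cells were 5 of the 6 members, all but Pnp, where 11.6% of the 9733 genes with at least 20 UMIs were; nothing is read from this count. Compared with middle Cubn cells, 3 members were at least 2-fold higher in the top class, Ada, Enpp3 and Nt5e, where 5.42% of 6049 genes were, and none was 2-fold lower, where 22.6% were. Over bottom cells 5 members were at least 2-fold higher in the top class, again all but Pnp (13% of genes), and over middle Sis cells 3 were (12.2%); none was 2-fold lower in either (37.7% and 24%). The step from crypt to middle Cubn already included 5 members, Ada, Enpp3, Gda, Xdh and Pnp, at least 2-fold higher (10.2% of genes) and none lower (27.3%), whereas in middle Sis only Gda and Xdh of the 4 members with enough UMIs were higher than in crypt (10.9%) and none was lower (35.4%).

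**Figure D1:**
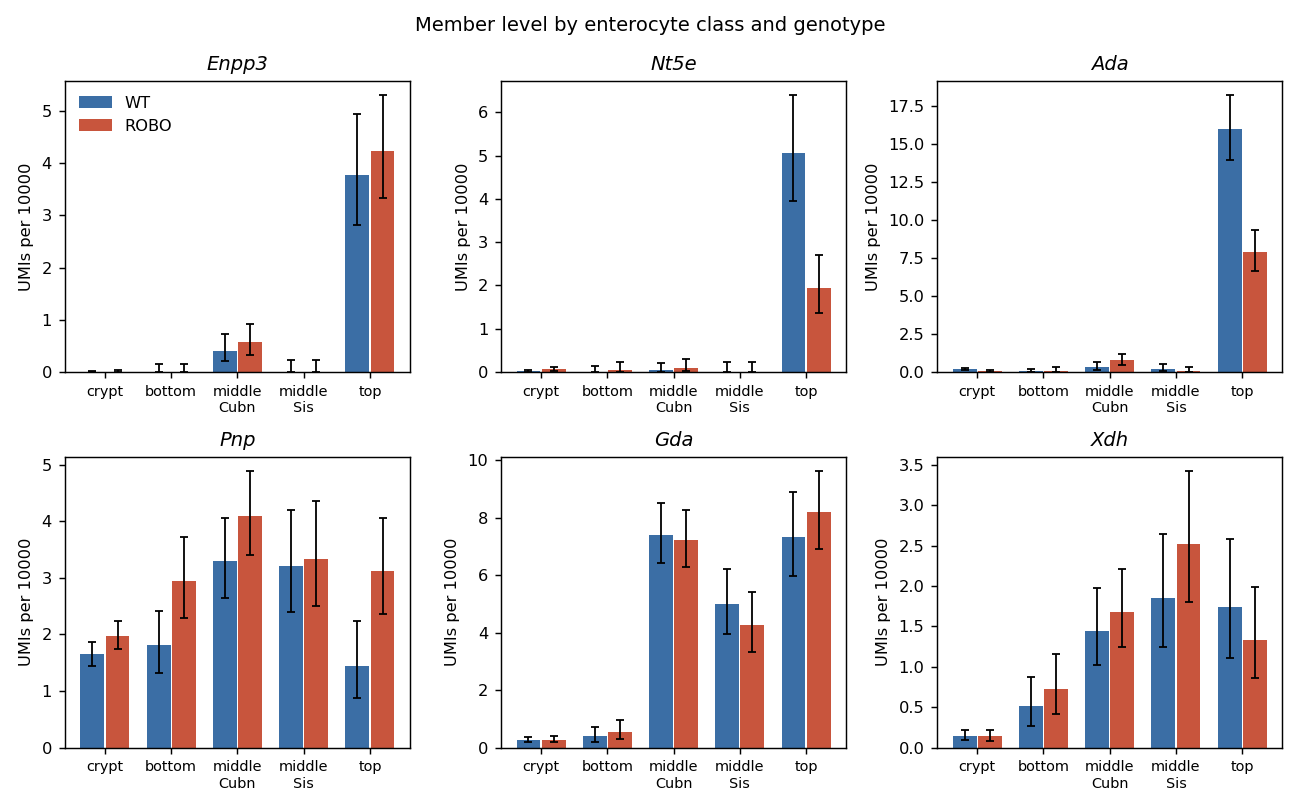
Bars give the level of each member, in UMIs per 10000 UMIs, in the crypt class and the 4 named enterocyte classes of WT and ROBO cells, and error bars are exact Poisson 95% intervals. Enpp3, Nt5e and Ada stand out in the top class, with 4.03, 3.31 and 11.4 UMIs per 10000 over both genotypes. Gda stood at 7.31 in middle Cubn, 4.64 in middle Sis and 7.81 in top cells. Xdh was highest in middle Sis, though its separate intervals in the middle and top classes overlapped, and Pnp was highest in middle Cubn.

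Enpp3, which takes the first step outside the cell (ENSMUSG00000019989.8, GRCm38 chr10:24772406-24842823, minus strand), had 52 UMIs in WT and 76 in ROBO top cells, 3.77 and 4.24 per 10000. Crypt cells had 1 UMI among 1400 cells, and bottom and middle Sis cells had none. Middle Cubn cells had 28 UMIs, 0.493 per 10000. The log2 ratio of top over crypt was 10.13 (7.62 to 15.44), resting on that 1 crypt UMI. Against bottom cells the level was at least 65.6-fold higher, with 3 UMIs over the class taken as the floor for a count of 0. Secretory cells had 9 UMIs, 9.03% of the level in the top class, and immune cells had none. Enpp3 was found in 62 of the 224 top cells.

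Nt5e (ENSMUSG00000032420.8, chr9:88327197-88372092, plus strand) had 70 UMIs in WT and 35 in ROBO top cells, 5.07 and 1.95 per 10000. The other enterocyte classes were near 0, with 1 UMI in bottom, 4 in middle Cubn and none in middle Sis cells. The log2 ratio of top over crypt was 6.52 (5.58 to 7.62), against 10 crypt UMIs. Nt5e was also found outside enterocytes, with 8 UMIs in immune cells (0.885 per 10000) and 7 in enteroendocrine cells (1.56 per 10000), of which 5 were in 1 cell. Lymphocytes are a known site of this enzyme, and the immune level was 26.7% of the level in the top class.

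Ada (ENSMUSG00000017697.3, chr2:163726584-163750239, minus strand) had 221 UMIs in WT and 142 in ROBO top cells, 16.0 and 7.92 per 10000. It had 33 UMIs in crypt cells, 3 in bottom, 32 in middle Cubn and 4 in middle Sis cells. The log2 ratio was 6.59 (6.07 to 7.15) for top over crypt and 4.34 (3.82 to 4.91) for top over middle Cubn. The crypt level was 1.04% of the top level. Secretory, enteroendocrine, immune and fibroblast cells had 0 Ada UMIs. In secretory cells a count of 0 allows at most 0.121 per 10000, set by 3 UMIs over the class.

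Pnp (ENSMUSG00000115338.2, chr14:50931082-50965237, plus strand), which acts after Ada, was the most even of the 6. Its level was 1.80 per 10000 in crypt, 2.36 in bottom, 3.72 in middle Cubn, 3.27 in middle Sis and 2.39 in top cells. The middle Cubn level exceeded the crypt level by 1.05 on the log2 scale (0.81 to 1.28), and the top level was below that of middle Cubn, with a log2 ratio of -0.63 (-1.03 to -0.25). Top over crypt was 0.41 (0.04 to 0.76), and its interval reached 0 at a resolution of 0.4, with at least 500 genes per cell, without ribosomal genes in the scaling and without the highest cells. WT cells alone gave -0.19 (-0.92 to 0.47) and ROBO cells alone 0.66 (0.21 to 1.08). The annotation places a second purine nucleoside phosphorylase gene, Pnp2 (chr14:50955992-50964749), inside the span of Pnp on the same strand. How reads shared by them were counted is not given in the sources used here, so values of both are uncertain. Pnp2 went from 0.476 per 10000 in crypt to 1.27 in middle Cubn and 0.851 in top cells, the same order of these classes as Pnp.

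Gda (ENSMUSG00000058624.13, chr19:21391307-21473445, minus strand), the branch of guanine, had a sharp step between the bottom class and the middle classes. Its level was 0.274 per 10000 in crypt and 0.471 in bottom cells, and 7.31 in middle Cubn, 4.64 in middle Sis and 7.81 in top cells. In top cells it was 7.32 in WT and 8.20 in ROBO. Top and middle Cubn cells differed by 0.10 on the log2 scale (-0.14 to 0.33). Gda was found in 168 of 288 middle Cubn cells and 119 of 224 top cells, and no cell had more than 14 UMIs. The unnamed cluster led by Atf3 had 4.37 per 10000.

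Xdh (ENSMUSG00000024066.9, chr17:73883895-73950196, minus strand), the last enzyme of the set, was above its crypt level already in bottom cells. Its level was 0.144 per 10000 in crypt, 0.615 in bottom, 1.57 in middle Cubn, 2.18 in middle Sis and 1.51 in top cells. In top cells it was 1.74 in WT and 1.34 in ROBO, with 24 UMIs in each. The bottom level exceeded the crypt level by 2.09 on the log2 scale (1.36 to 2.81), whereas for Gda this difference was 0.78 (0.04 to 1.47). Top and middle Cubn cells differed by -0.05 (-0.59 to 0.47). The middle Cubn level was below that of middle Sis, with a log2 ratio of -0.48 and an interval that did not reach 0. Enteroendocrine cells had no UMI of Xdh or Gda.

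The members were also placed along a position score, which uses none of the 6 genes and is not a measured position on the villus. The score is the share of top markers among the UMIs of all bottom, middle and top enterocyte markers in a cell. In all, 813 enterocyte-like cells with at least 5 UMIs of these markers were put into 5 bins of 162 or 163 cells. Apoa4, with 48049 UMIs in top cells, made up most of the top marker UMIs there, and Gpx3, with 2822, came next. Xdh went from 0.527 per 10000 in the first bin to 1.73 in the second and stayed between 1.70 and 1.83 from there. Gda went from 0.405 to 5.06 in the second bin, reached 8.26 in the fourth and was 6.74 in the fifth. Pnp was highest in the third bin, at 3.82. Ada was 0.852 in the fourth bin and 15.9 in the fifth. Nt5e was 0.185 in the fourth and 4.48 in the fifth, and Enpp3 was 1.04 and 5.13. Thus, along the score, Xdh and Gda were at or near their full level before Ada, Nt5e and Enpp3 appeared in number. The bins largely follow the classes. The second held 85 middle Sis and 55 middle Cubn cells, the fourth 92 middle Cubn and 69 top cells, and the fifth 147 top cells. The order is therefore one of the score, and an order along the villus was not tested.

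**Figure D2:**
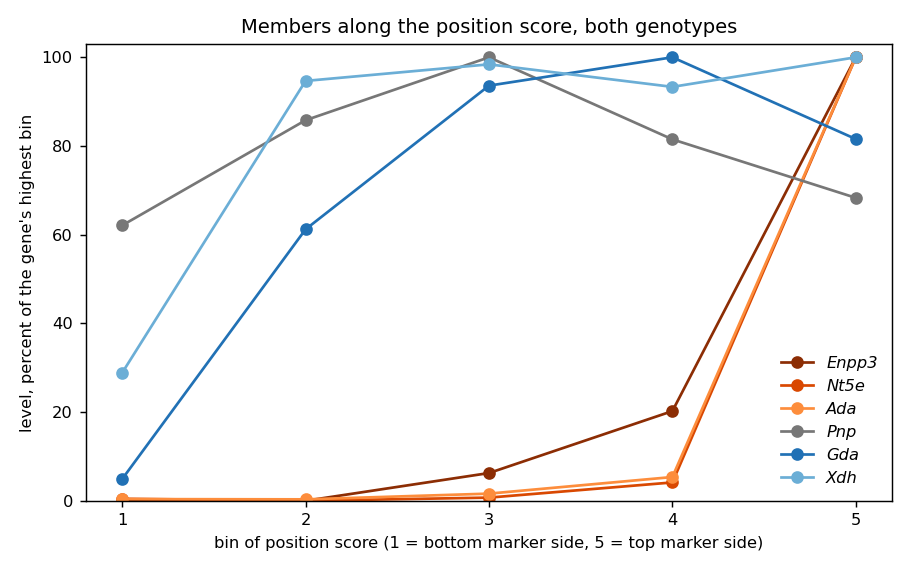
Each line gives a member's level in 5 bins of the position score, as a percent of that gene's highest bin, over cells of both genotypes. Xdh, Gda and Pnp reach most of their height by the third bin, and Ada, Nt5e and Enpp3 climb between the fourth bin (0.852, 0.185 and 1.04 UMIs per 10000) and the fifth (15.9, 4.48 and 5.13).

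The top class itself was not uniform. Its 224 cells were split by the same score into 3 groups of 75, 75 and 74 cells, a split chosen after earlier results were seen. The median depths of the groups were 1231, 1314 and 1210.5 UMIs. The split was not repeated without Apoa4 in the score. Ada was 0.768 per 10000 (0.332 to 1.51) in the group nearest the middle, 2.37 (1.55 to 3.47) in the next and 31.8 (28.5 to 35.4) in the group with the highest score. Nt5e was 0.288, 1.36 and 8.41. Enpp3 was 1.44, 4.55 and 6.09, a more gradual climb.

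Gda moved the other way at the far end. It was 9.70 (7.90 to 11.8) and 10.7 (8.89 to 12.9) in the first 2 groups and 2.80 (1.88 to 4.03) in the highest. Both genotypes showed this fall, to 2.57 in WT and 3.06 in ROBO cells. The share of cells with a Gda UMI was 68.0%, 62.7% and 28.4%. Pnp was 2.11, 2.27 and 2.80, and Xdh 1.06, 2.09 and 1.35, each with overlapping intervals.

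**Figure D3:**
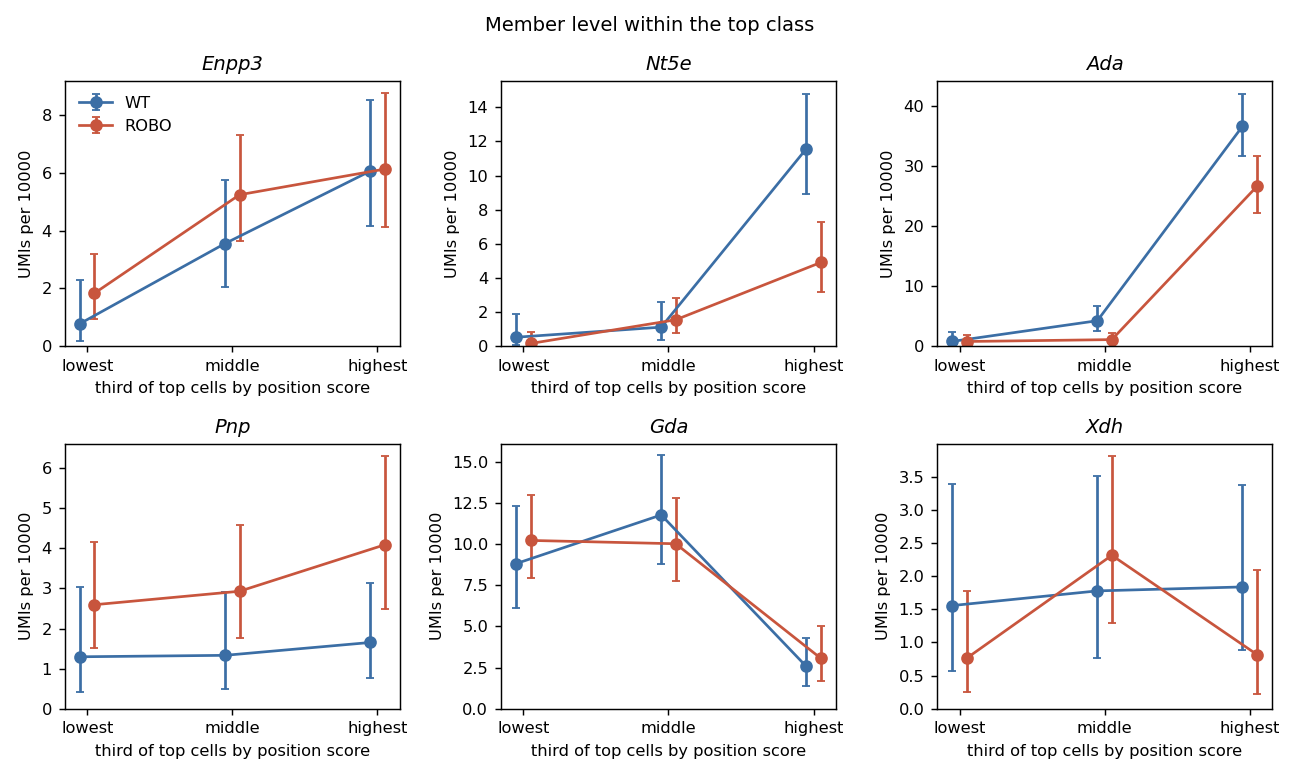
Points give each member's level, in UMIs per 10000, in 3 groups of top cells ordered by position score, for WT and ROBO cells, with exact Poisson 95% intervals. Ada, Nt5e and Enpp3 are highest in the group with the highest score, where Gda drops to 2.80 over both genotypes.

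Ada and Nt5e transcripts were held by few cells. Of the 363 Ada UMIs in top cells, 5 cells held 74.9%, and Ada was found in 36 of 224 cells. The cell with the most was a WT cell with 105 Ada UMIs among its 5515 UMIs, and the next had 60 of 5464. In ROBO the highest cell had 78 Ada UMIs of 3430, or 2.27% of its transcripts. These 3 cells also carried Nt5e, with 16, 22 and 4 UMIs, and Enpp3, with 11, 8 and 3 UMIs, and none of them had a Gda UMI. For Nt5e, 5 cells held 59.0% of 105 UMIs, and 34 cells had any. Gda was spread more evenly, with 14.1% of its UMIs in 5 cells.

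To compare detection at equal depth, 912 UMIs were drawn from every cell that had as many, the lower quartile of all cells, which kept 156 of the 224 top cells. Of these, 23 had Ada, 20 had Nt5e and 12 had both, where the product of the shares gives 2.95 cells. Enpp3 and Nt5e were together in 11 cells against 4.87. Gda and Nt5e were together in 5 cells against 8.59, and Ada and Gda in 7 against 9.88. Xdh was found with Enpp3 in 10 cells against 5.60, with Nt5e in 5 against 2.95 and with Ada in 5 against 3.39. With Gda it was found in 12 cells against 9.88, and with Pnp in 3 against 4.28. Any of the 6 genes was found in 75.6% of top cells (68.1 to 82.1), 61.3% of middle Cubn, 55.6% of middle Sis, 26.5% of bottom and 17.6% of crypt cells; without thinning the share in top cells was 83.9%. For comparison, 14.3% of secretory cells had a UMI of any of the 6. Their depth before thinning was higher, a median of 1987 UMIs against 1492.5 in top cells. Of the immune cells, 9 of 36 had one (interval 12.1% to 42.2%, median 1907 UMIs). The crypt share lay between these 2 classes, and the bottom share was near that of immune cells. Most of the crypt and bottom shares came from Pnp, found in 14.8% and 20.4% of cells. Pnp was found in 7.69% of secretory and 16.7% of immune cells. Its level was 1.80 per 10000 in crypt and 2.36 in bottom cells, against 0.931 in secretory and 0.774 in immune cells. Immune cells also held Nt5e, so they are not a background free of members. The pooled shares therefore do not tell whether members were above background in crypt or bottom cells.

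**Figure D4:**
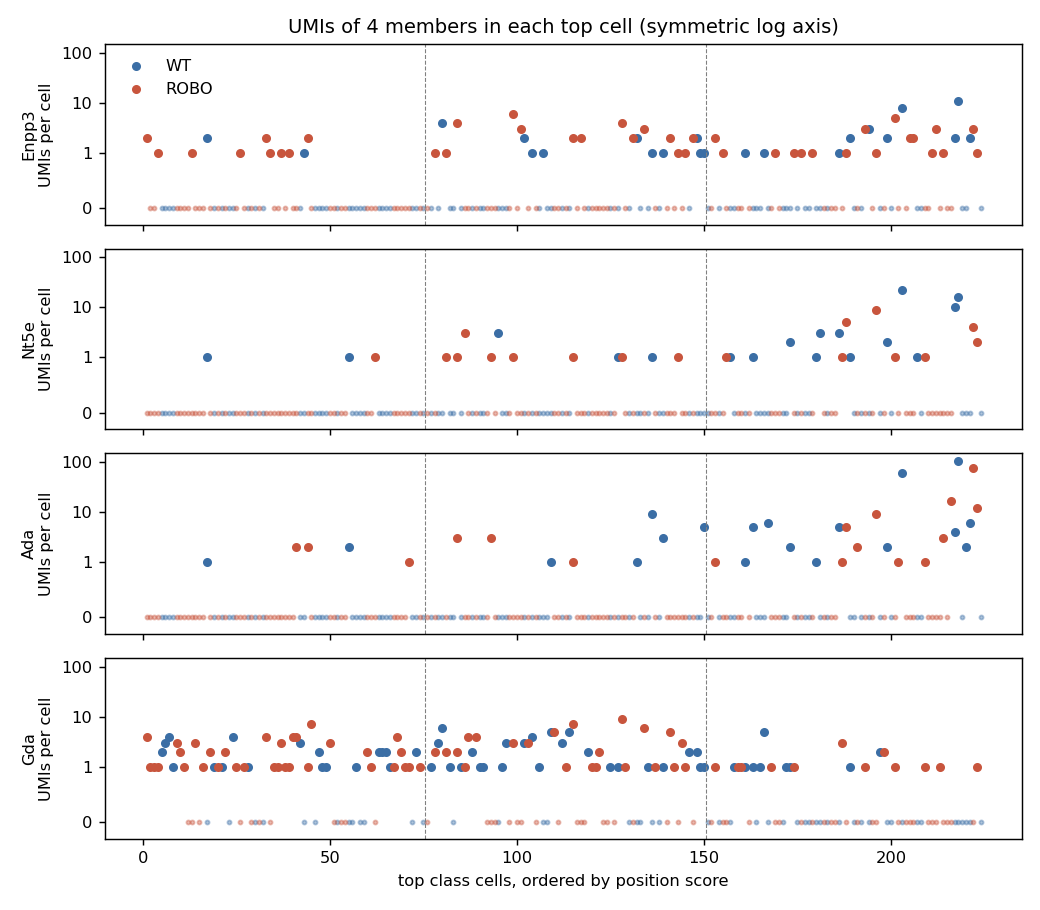
Each point is 1 of the 224 top cells, ordered along the x axis by position score, and its height is the number of UMIs of Enpp3, Nt5e, Ada or Gda on a symmetric log axis; dashed lines part the 3 groups. The cells with 60 to 105 Ada UMIs lie in the last group, where Gda was found in 28.4% of cells.

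Between genotypes, the members moved in different directions in the top class. Of the 6, Pnp was at least 1.5-fold higher in ROBO top cells, where 14.9% of 2635 genes with at least 20 UMIs were, and Ada and Nt5e were at least 1.5-fold lower, where 10.8% were. Ada went from 16.0 to 7.92 per 10000, a log2 ratio of ROBO over WT of -1.02 (-1.33 to -0.70). Nt5e went from 5.07 to 1.95, a log2 ratio of -1.38 (-2.01 to -0.77). Pnp went from 1.45 (20 UMIs) to 3.12 (56 UMIs), a log2 ratio of 1.11 (0.35 to 1.92), which was 0.48 (-0.12 to 1.11) when the cells were clustered without regression of phase scores. Enpp3 (0.17), Gda (0.16) and Xdh (-0.38) had intervals that spanned 0.

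The share of cells with Ada differed less between genotypes than its level. Ada was found in 19 of 101 WT top cells (18.8%, 11.7 to 27.8) and in 17 of 123 ROBO top cells (13.8%, 8.26 to 21.2), whose intervals overlap. For Nt5e the counts were 17 of 101 and 17 of 123. With each cell given the same weight, the log2 ratio of Ada was -0.29, that of Nt5e -0.95 and that of Enpp3 0.73. Without the highest cell of each genotype, an alternative chosen after the data were seen, the ratios of Ada and Nt5e were -1.27 and -1.29, and without the 2 highest cells of each they were -0.71 (-1.31 to -0.13) and -1.07 (-1.93 to -0.23). Enpp3 was found in 22 WT and 40 ROBO top cells, and Pnp in 18 and 40.

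Markers of the top class were compared in the same cells, and their part in the differences was not tested. Gpx3 had a log2 ratio of 0.07 (-0.03 to 0.18) and Mfi2 of 0.07 (-0.15 to 0.30), and Apoa4 one of -0.22 (-0.24 to -0.19). Klf4, a transcription factor of differentiated epithelium, was lower in ROBO, at -0.65 (-1.16 to -0.15), and Creb3l3 was at 0.24, Cdkn1a at 0.08, Neu1 at -0.28, Lgals3 at -0.23 and Krt20 at -0.24, with intervals that spanned 0. Egfr had 3 UMIs in all. The group of top cells with the highest score held 36 WT and 38 ROBO cells. Within it, Ada was 36.5 per 10000 in WT and 26.6 in ROBO cells, and Nt5e was 11.6 and 4.90. However, 2 WT cells held 165 of 199 Ada UMIs of this group and 2 ROBO cells held 95 of 130. Without these cells WT and ROBO had Ada levels of 7.82 (5.41 to 10.9) and 7.84 (5.46 to 10.9), so its difference in this group rested on them. Nt5e without its 2 highest cells of each genotype was 5.75 (3.72 to 8.49) and 2.27 (1.09 to 4.17).

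In all cells of a genotype, Enpp3 was at least 1.5-fold higher in ROBO, where 4.6% of 10634 genes were, and no member was at least 1.5-fold lower, where 4.86% were. The top class, which held most Enpp3 UMIs, made up 7.39% of ROBO and 5.15% of WT UMIs. Within it the Enpp3 log2 ratio was 0.17 (-0.36 to 0.71). The value over all cells mixes class sizes with levels inside classes, and their parts were not tested. In middle Cubn cells Ada was at least 1.5-fold higher in ROBO (10.4% of genes) and none of the 5 members with enough UMIs was lower (11.8%). In crypt cells Ada was at least 1.5-fold lower (5.24%) and none of 4 was higher (5.89%). Over all cells the Enpp3 log2 ratio was 0.70 (0.24 to 1.17). That of Pnp was 0.41 (0.24 to 0.58), from sums of 500 UMIs for WT and 601 for ROBO. Pnp levels were higher in ROBO in each of the 5 classes from crypt to top, with log2 ratios between 0.06 and 1.11. The intervals spanned 0 in middle Cubn (-0.09 to 0.73) and middle Sis (-0.52 to 0.64). Those of crypt (0.004 to 0.52), bottom (0.14 to 1.27) and top cells lay above 0. All classes come from the same pooled sample of each genotype. Pnp2, whose reads may be shared with Pnp, was lower in ROBO crypt cells, at 42 against 90 UMIs, a log2 ratio of -0.87 (-1.43 to -0.32). Middle Cubn cells of WT and ROBO had 7.41 and 7.22 Gda UMIs per 10000, a log2 ratio of -0.04 (-0.32 to 0.25). Xdh was 1.44 and 1.68 there, a log2 ratio of 0.22 (-0.42 to 0.86).

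**Figure D5:**
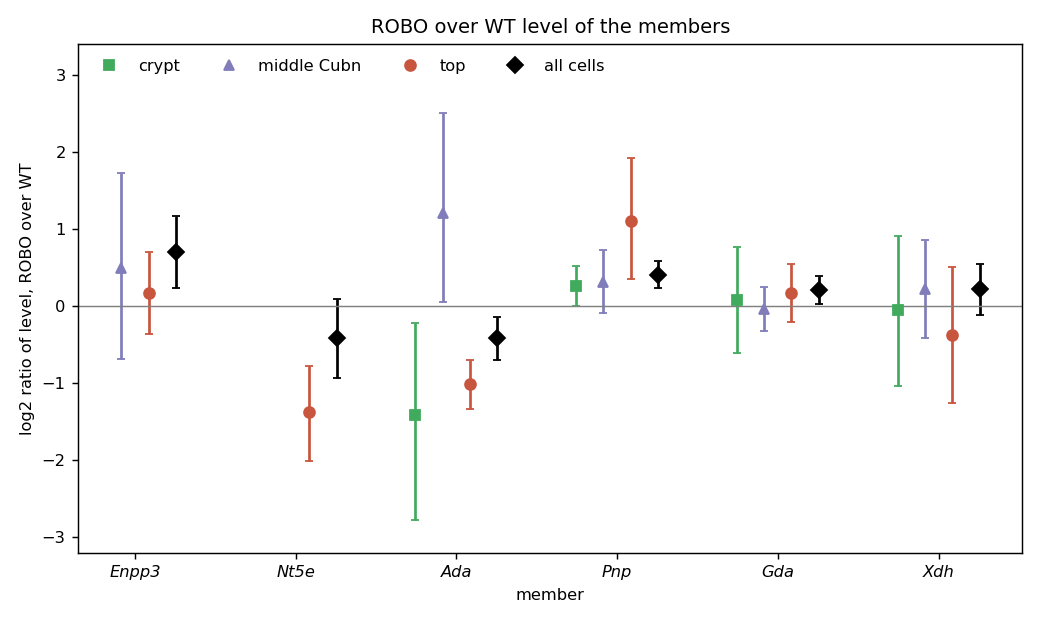
Points give the log2 ratio of level in ROBO over WT cells for each member in crypt, middle Cubn and top cells and in all cells, with conditional exact 95% intervals, and a ratio is left out where either genotype had fewer than 4 UMIs. In top cells Ada (-1.02) and Nt5e (-1.38) lie below 0 and Pnp (1.11) above.

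The rest of the purine pathway was described from a list of 71 further genes, chosen with earlier results known. Of the 43 with at least 20 UMIs over top and crypt cells, 6 were at least 2-fold higher in top cells, Entpd2, Entpd8, Alpi, Slc28a2, Abcg2 and Adora2b. That is 14.0% of the 43, near the 11.6% of all genes, so the count does not set the list apart, and the median log2 ratio of the 43 was -0.87, against -0.59 over all genes tested. Slc28a2, which carries purine nucleosides into the cell with sodium, had its highest level in the top class, at 0.668 per 10000 in crypt, 1.48 in middle Cubn and 8.25 in top cells. Within the top class it was 4.42, 6.19 and 14.3 in the 3 groups of rising score. Top cells of WT and ROBO had 8.76 and 7.86 per 10000, which gives -0.16 on the log2 scale (-0.52 to 0.21).

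Other surface enzymes were less restricted. Alpi, the intestinal alkaline phosphatase, was 1.84 per 10000 in crypt, 12.5 in bottom, 16.1 in middle Cubn and 24.3 in top cells. Entpd8, which cuts nucleoside triphosphates and diphosphates, was 0.661 in crypt and 1.98 in top cells. Adora2b, a receptor for adenosine, had 2 UMIs in crypt, 21 in middle Cubn and 18 in top cells, whereas Adora1 had 92, 9 and 0. Slc29a1, a transporter that lets nucleosides cross in both directions, had 209 UMIs in crypt and 0 in top cells. Abcg2, which exports urate, was 0.458 per 10000 in crypt and 1.10 in top cells.

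Genes of purine synthesis ran the other way. All 12 genes of de novo synthesis with enough UMIs were at least 2-fold lower in top than in crypt cells, where 45.9% of all genes were, with a median log2 ratio of -1.95. Impdh2, which commits the pathway to guanine nucleotides, was 2.35 per 10000 in crypt and 0.315 in top cells, Gart was 1.40 and 0.126, and Atic had 268 UMIs in crypt and 0 in top cells. Of the salvage enzymes, Hprt was 2.54 and 1.45, and Aprt was 4.72 and 6.80.

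Profiles most like the members were sought over 16 points, 8 epithelial classes in 2 genotypes, among 7447 genes with at least 100 UMIs. The correlations are descriptions, since the points share libraries and depth. The mean profile of the 6 was closest to B2m (r = 0.957), Apoa4, Clca4b, Spink1 and Cd36. Ada was closest to Csf1r (0.964) and Mfi2, Nt5e to Anxa5 (0.927) and Igf2r, and Enpp3 to Slc46a3 (0.909) and Gpx3. Gda was closest to Mep1b (0.978) and Slc46a1, Xdh to Cdr2 (0.973) and Muc13, and Pnp to Crot (0.958) and Dpyd. Among the members, Gda and Xdh were the closest pair (0.93), followed by Ada and Enpp3 (0.79), and Gda and Nt5e were unrelated (-0.01).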

How the data were processed

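Cells of crypt-enriched small intestine were captured on the Bio-Rad ddSEQ with the SureCell WTA 3' kit, and the authors built gene matrices in BaseSpace. The deposited values are raw UMI counts per gene and cell, not normalized. The labels name mm10 and GRCm38; the aligner and annotation are not given in the sources used here. Reads at the 3' end only were captured, so levels were compared within a gene. Members and lists, markers included, were chosen with earlier results of these data known.

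All deposited cells entered (463 to 13756 UMIs per cell). Scrublet (scanpy 1.11.5) called 6 of 2597 cells doublets, too few to show that it worked, and they were kept. Clusters were made in Seurat 5.3.0 (R 4.3.3) from 1986 variable genes, with 14 purine genes left out and cell cycle phase scores regressed, at resolution 0.8. A cluster was named from listed markers where at least 3 were raised 1.5-fold; it stayed unnamed where no own marker was among its 10 leading genes. UMIs were summed by class and genotype and scaled to 10000. Intervals are exact Poisson, conditional exact for ratios and Clopper-Pearson for shares (scipy 1.17.1). The ratio intervals were tried on simulated Poisson sums, which is the model they assume. That trial cannot show how they hold where few cells carry most UMIs of a gene. Genes were counted past 2-fold between classes and 1.5-fold between genotypes, with at least 20 UMIs. Named were the members, purine list genes with at least 20 UMIs, class markers, and the genes closest in profile (Pearson on log2 of level plus 0.1). No comparison between genotypes was tested, since each is 1 pooled sample. The split of top cells by score and the fits without the highest cells were chosen after the data were seen.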

Additional observations from a re-analysis of the deposited data

Results flagged for a closer look

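The ROBO over WT ratio of Ada had opposite signs in different classes, with intervals that did not reach 0. The log2 ratio was -1.02 in top cells and -1.41 in crypt cells (25 UMIs in WT and 8 in ROBO), and 1.21 (0.05 to 2.51) in middle Cubn cells (9 and 23 UMIs). The middle Cubn UMIs came from 3 WT and 5 ROBO cells, with up to 8 in a cell, and the intervals take UMIs as independent. The difference between classes was not tested.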

How the results depend on the processing

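The median log2 ratio of top over crypt over the 6 members was 5.68, and it was 6.35 without regression of phase scores, 4.68 when all cells weighed alike, and 4.77 without the 2 highest cells of each genotype. The share of top cells with a UMI of any member was 75.6% of 156 cells when thinned to the lower quartile of UMIs. It was 91.5% when thinned to the median of 1550 UMIs, which kept only 71 cells, and 83.9% of all 224 cells without thinning. The 3 shares thus come from different sets of cells. The other alternatives run (clustering with all genes, resolutions of 0.4 and 1.2, at least 500 genes per cell, doublets removed, scaling without ribosomal RNA and protein genes) kept the direction of the 6 top over crypt ratios, as did the phase, weight and highest-cell settings; leaving ribosomal genes out of the scaling shifted every one of these ratios by -0.23. They also kept the direction of the Ada, Nt5e and Pnp ratios between genotypes in top cells. The Pnp ratio of top over crypt ranged from 0.18 to 0.62, and its ROBO over WT ratio in top cells from 0.48 to 1.16. Xdh was highest in the fifth bin of the position score, but not when Apoa4 was left out of the score. No paired analysis was possible because the columns do not say to which of the numbered samples a cell belongs, and for the same reason no sample could be left out in turn. Depth limits Nt5e and Enpp3 outside the top class, where counts were mostly below 10.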

Other observations

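Of 7 listed genes of pyrimidine breakdown, 2 had at least 20 UMIs over top and middle Cubn cells, Cda and Dpyd, and both were at least 2-fold lower in top cells, where 22.6% of all genes were. Cda, which deaminates cytidine, was 4.69 UMIs per 10000 in bottom, 3.38 in middle Cubn, 5.51 in middle Sis and 1.07 in top cells. Dpyd, which reduces uracil and thymine, was 2.87 in middle Cubn and 1.04 in top cells. Mocs2, which takes part in making the molybdenum cofactor that Xdh needs, was 1.19 in crypt, 2.66 in middle Cubn, 2.43 in middle Sis and 1.2 in top cells. Uox, Allc and Aox1 had no UMI in the 5 classes.

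The marker list of the top class was uneven. The crypt level was 0.118% of the top level for Mfi2 and 0.264% for Gpx3, but 47.1% for Cdkn1a, and Egfr had 87 UMIs in crypt and 3 in top cells.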
